A study of Mus musculus with 6 samples.

Results

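The data describe 10 genes for secreted and surface proteins of embryonic mesenchyme in mouse gastruloids, aggregates of embryonic stem cells (ESCs) that break symmetry and elongate in culture. The 10 genes are *Fap*, *Islr*, *Smoc1*, *Smoc2*, *Fbln1*, *Fbln2*, *Sparc*, *Spon1*, *Postn* and *Lum*, out of 35565 Ensembl identifiers measured, and collagens were left out. The members were selected on their values in the comparison described here, the counts of the 3 Control libraries against those of the 3 knockdown libraries, together with their known roles. Their differences between the groups are therefore a description. The members' calls are read off the fit across all genes, with no p-value given and no support drawn from them.

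The study asked what silencing of the ultraconserved long non-coding RNA *T-UCstem1* does to gastruloid development, and measured whole gastruloids by bulk RNA sequencing on day 5. Control (NT) gastruloids were made from ESCs that carry a non-targeting construct (the sample labels call this group wild type), and KD-1 gastruloids from an ESC clone in which *T-UCstem1* is knocked down. Both came from the mouse ESC line TBV2 129/SvP, and both were given CHIR99021, which activates WNT signalling by blocking the kinase GSK3. Each group had 3 libraries, described as biological replicates. KD-1 is a single clone and the Control a single line, so a difference between these lines other than the knockdown cannot be told apart from it, and the spread between libraries is that between gastruloid samples of 1 line. No value of *T-UCstem1* was analysed here, so the knockdown was not checked.

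Matricellular proteins are secreted into the extracellular matrix, where they bind fibres, growth factors and cell surface receptors without building the scaffold themselves. In the embryo many of them are made by mesenchyme, the loose tissue that comes largely from mesoderm and neural crest, and by the somites and their derivatives. Small leucine-rich proteoglycans, a related class of secreted proteins, coat collagen fibrils and set their spacing.

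Promoter sequences from RefSeq (GRCm38.p6) were matched for *Islr*, *Fbln1*, *Fbln2*, *Sparc* and *Postn*, in 7 windows that run from 250 bases before a transcription start to 50 after it. *Fap*, *Smoc1*, *Smoc2*, *Spon1* and *Lum* had no entry in that table. The 150 bases before the start are shown for 3 members that were lower in KD-1 together, as the DNA from which their transcripts begin. They lie at chr9:58158555-58158704 on the minus strand (*Islr*), chr15:85205799-85205948 on the plus strand (*Fbln1*) and chr3:54360957-54361106 on the plus strand (*Postn*), and are written in the direction of transcription, with CG pairs and a TATA box in capitals.
Islr: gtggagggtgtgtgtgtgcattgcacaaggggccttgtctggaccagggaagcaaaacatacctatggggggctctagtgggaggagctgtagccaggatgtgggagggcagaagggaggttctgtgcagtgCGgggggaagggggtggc
Fbln1: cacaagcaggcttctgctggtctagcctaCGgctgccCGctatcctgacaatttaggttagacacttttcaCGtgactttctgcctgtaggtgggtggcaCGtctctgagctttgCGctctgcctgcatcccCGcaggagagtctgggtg
Postn: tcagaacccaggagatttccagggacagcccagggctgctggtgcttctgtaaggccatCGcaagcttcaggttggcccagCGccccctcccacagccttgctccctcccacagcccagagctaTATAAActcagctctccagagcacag

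The 3 stretches hold different numbers of CG pairs, 1 for *Islr*, 6 for *Fbln1* and 2 for *Postn*, against a median of 4 over the same stretch of 32851 promoter windows. *Fbln1* and *Postn* each have another annotated start, not printed, whose stretch holds 11 and 2 CG pairs. The printed *Postn* window, but not that of its other start, holds TATAAA on its sense strand, beginning 26 bases before the start, a motif found in 8.32% of all windows. The motifs of AP-1 (TGANTCA), TEAD (GGAATG) and forkhead (GTAAACA) proteins were searched on both strands and were in none of the members' 7 windows, against 7.81%, 14.7% and 3.65% of all windows. These are matches of letters in 1 window per start, and nothing follows from them about any factor.

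Libraries held 20982249 to 85561026 estimated counts. Levels are given as CPM, counts scaled to 1000000 per library after TMM normalization, and libraries are named by their depth within the group, since the columns carry no replicate number that can be matched to the labels. A count of 0 allows up to 3 counts, or 0.143 CPM in the shallowest library and 0.0351 CPM in the deepest, for counting error only. The Control libraries differed in how they covered genes by length: genes with transcripts over 6000 bases stood, by the median log2 deviation, 0.31 above those under 2000 bases in the Control library of lowest depth and 0.38 below them in that of middle depth, while KD-1 libraries lay within 0.08 of no difference. Over the contrast itself the median log2 fold change was -0.41 for the short genes and 0.11 for the long ones, and the part of this in the members' values was not tested.

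Of the 10 members, 8 had enough counts to be tested in the fit across 15110 genes, and 7 were called. A call stands for an adjusted p under 0.05 in edgeR's quasi-likelihood test and a fold change of more than 1.5 in either direction. *Fap*, *Islr*, *Smoc1*, *Fbln1* and *Spon1* were called lower in KD-1, *Smoc2* and *Fbln2* were called higher, and *Sparc* was not called. *Postn* and *Lum* had too few counts for the fit. Among all genes tested 37.7% were called, 18.1% lower and 19.7% higher in KD-1, and nothing is read from the members' count since the members were chosen by it. The groups did not overlap for any of the 10 members, which was also so for 70.6% of the genes tested. For *Lum* the separation rests on 1 count in the Control library of highest depth, within the counting error of 0. The median log2 fold change of the 8 tested members was -2.90, against -0.015 over all genes tested. Nothing is read from that either, given how the members were chosen. In bulk RNA, fewer cells of a type and less RNA per cell cannot be told apart, and this holds for every value below.

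**Figure D1:**
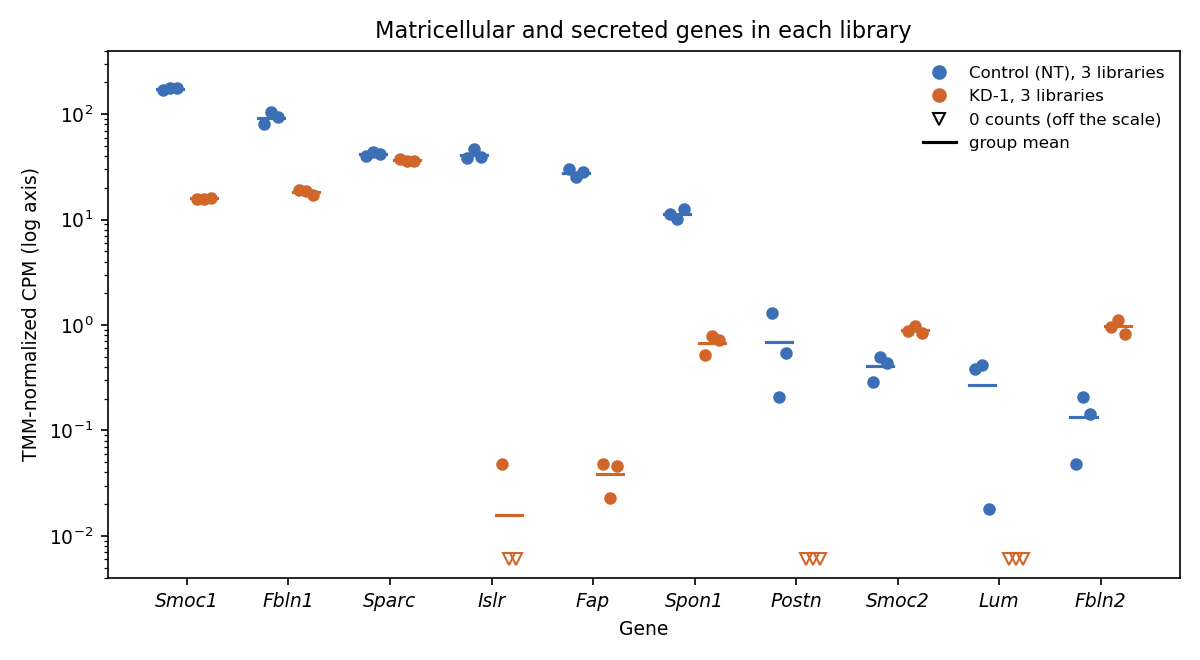
TMM-normalized CPM (vertical log axis) of the 10 members in each of the 3 Control (NT) and 3 KD-1 libraries, with bars at the group means and open triangles at the bottom edge, off the scale, for libraries at 0 counts. Control points lie above KD-1 points for 8 members, for *Lum* by 1 count in the Control library of highest depth, and below them for *Smoc2* and *Fbln2*. The *Sparc* points of both groups lie close together, between 35.8 and 43.6 CPM.

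*Fap* (ENSMUSG00000000392, GRCm39 chromosome 2, from 62331286 to 62404419, minus strand) encodes fibroblast activation protein, a serine protease on the surface of mesenchymal and activated stromal cells. It was at 30.5, 25.2 and 28.2 CPM in the Control libraries, from lowest to highest depth, and at 0.0477, 0.0230 and 0.0460 CPM in the KD-1 libraries. All Control libraries were thus high and all KD-1 libraries close to the limit that a count of 0 allows, with 7 counts in KD-1 altogether against 3044 in Control. The ratio of Control over KD-1 was 655, with a 95% counting interval of 317 to 1630.

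*Islr* (ENSMUSG00000037206, chromosome 9, from 58063528 to 58111589, minus strand) encodes a leucine-rich repeat protein of the immunoglobulin superfamily, also known as meflin, which marks mesenchymal stromal cells. Its Control libraries held 38.2, 46.7 and 39.5 CPM. In KD-1 the library of lowest depth had 2 counts, 0.0477 CPM, and the other two had 0. The ratio of Control over KD-1 was 3430, with a 95% counting interval of 949 to 28300, and the wide interval comes from those 2 counts. Without the KD-1 library that holds them only a bound was left, at least 1730-fold, and without the KD-1 library of highest depth the ratio was 1700, with an interval of 469 to 14000.

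*Islr* overlaps other genes, which matters for how reads were assigned to it. Its annotated exons share 858 bases with its relative *Islr2* on the same strand and 16 bases with *Stra6*, the retinol transporter receptor gene, on the opposite strand. *Islr2* was at 0.651 to 1.1 CPM in Control and 0.712 to 1.097 CPM in KD-1, so its groups overlapped, and it was not called (log2 fold change -0.10, edgeR adjusted p = 0.80). *Stra6* was at 34.1 to 39.3 CPM in Control and 0.453 to 0.598 CPM in KD-1, and its log2 fold change was -6.09 ± 0.12 (SE, edgeR adjusted p = 8.6e-09). The 2 neighbours of *Islr* thus differed in what they showed, and counts of the shared bases remain uncertain because the counting may have split reads among them.

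*Dpp4*, a surface protease related to *Fap* that lies 88709 bases from it on the chromosome, took the opposite direction. It was at 2.99, 3.23 and 3.75 CPM in the Control libraries and 13.04, 13.03 and 13.6 CPM in those of KD-1, and its log2 fold change was 1.97 ± 0.12 (SE, edgeR adjusted p = 1.9e-06). The intracellular relatives *Dpp8*, *Dpp9* and *Prep* were not called, at log2 fold changes of -0.15, -0.57 and 0.10, though *Dpp9* lay close to the fold threshold and passed it under 4 of the alternatives, at -0.638 to -0.585.

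*Smoc1* and *Smoc2* encode secreted modular calcium-binding proteins of the SPARC family, of which *Smoc1* is known as a modulator of BMP signalling. *Smoc1* (chromosome 12, from 81073554 to 81233188, plus strand) was at 170, 177 and 176 CPM in Control and at 15.9, 15.8 and 16.1 CPM in KD-1. The libraries of a group lay within a few percent of each other, with a coefficient of variation of 1.97% in Control and 1.06% in KD-1. The log2 fold change was -3.45 ± 0.06 (SE, n = 3 per group), which is 10.96-fold lower in KD-1.

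*Smoc2* (chromosome 17, from 14499735 to 14625074, plus strand) was scarce in all libraries and higher in KD-1. It was at 0.289, 0.503 and 0.433 CPM in Control, from 6, 17 and 24 counts, and at 0.882, 0.988 and 0.840 CPM in KD-1, from 37, 43 and 73 counts. The groups did not overlap, and the log2 fold change was 1.1 ± 0.33 (SE). This call was lost when the KD-1 library of middle or of highest depth was left out, where the log2 fold change was 1.05 and 1.17. Its exons share 246 bases with an antisense RNA gene, *4930474M22Rik*, and without stated use of strand the reads of both cannot be told apart.

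The fibulins are secreted glycoproteins that bind fibronectin, basement membranes and elastic fibres. *Fbln1* (chromosome 15, from 85090150 to 85170737, plus strand) was at 80.2, 104 and 94.1 CPM in Control and 19.0, 18.8 and 17.3 CPM in KD-1. All Control libraries were above all KD-1 libraries, and the log2 fold change was -2.34 ± 0.10 (SE). *Fbln2* (chromosome 6, from 91189437 to 91249522, plus strand) went the other way at a level near the limit of detection in Control, with 0.0482, 0.207 and 0.144 CPM from 1, 7 and 8 counts, against 0.954, 1.13 and 0.829 CPM in KD-1 from 40, 49 and 72 counts. Its log2 fold change was 2.73 ± 0.44 (SE).

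The relatives of these fibulins were as mixed in direction. *Fbln7*, a cell adhesion member of the family, was higher in KD-1, with a mean of 0.687 ± 0.030 against 0.124 ± 0.060 CPM (SD, n = 3), a log2 fold change of 2.58 (edgeR adjusted p = 0.00094). *Efemp1* and *Efemp2*, fibulins of elastic tissue, were lower, by log2 fold changes of -1.60 (edgeR adjusted p = 0.00012) and -1.06 (edgeR adjusted p = 0.00074). *Hmcn1*, a very large member, was not called, and its Control values of 29.0, 12.6 and 28.0 CPM enclosed those of KD-1, 18.0 to 20.2 CPM. The low value of 12.6 CPM belongs to the Control library of middle depth, the same in which long genes were low. *Fbln5* was at most 0.368 CPM and was not tested.

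*Sparc* (ENSMUSG00000018593, chromosome 11, from 55285317 to 55314067, minus strand) encodes osteonectin, a collagen-binding glycoprotein made by many cell types. It was at 40.3, 43.6 and 42.3 CPM in Control and 37.9, 35.8 and 36.1 CPM in KD-1. The groups did not overlap, but the difference was small, with a log2 fold change of -0.20 ± 0.06 (SE), and over the alternatives it ranged from -0.23 to -0.14. Its relatives differed more: *Sparcl1*, a close homologue, was at 77.9 to 79.4 CPM in Control and 6.50 to 7.61 CPM in KD-1 (log2 fold change -3.50 ± 0.08, SE, edgeR adjusted p = 1.5e-08). The testican genes *Spock1* and *Spock2*, which encode secreted proteoglycans, were higher in KD-1, by 1.55 (edgeR adjusted p = 0.0024) and 1.15 (edgeR adjusted p = 3e-05) on the log2 scale, while the third testican, *Spock3*, was lower, at a log2 fold change of -2.18.

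*Spon1* (chromosome 7, from 113364999 to 113642610, plus strand) encodes F-spondin, an axon guidance protein first known from the floor plate of the neural tube. It was at 11.3, 10.03 and 12.5 CPM in Control and 0.525, 0.781 and 0.725 CPM in KD-1. All Control libraries were higher, and the log2 fold change was -4.04 ± 0.18 (SE), 16.5-fold lower in KD-1. Markers of floor plate and notochord were mixed. *Shh* and *Nkx2-2* were at 0 counts in the Control libraries, with 0, 1 and 4 counts and 0, 1 and 1 counts in KD-1. *Foxa2* had 2, 1 and 1 counts in Control and more in KD-1, 6, 5 and 9, at no more than 0.143 CPM. *Noto* was at 0 in all 6 libraries, and all of these were too scarce to be tested. *Chrd*, a BMP antagonist of the notochord, was lower in KD-1 as *Spon1* was, at 2.65 to 3.20 CPM in Control and 0.944 to 1.41 CPM in KD-1 (log2 fold change -1.27, edgeR adjusted p = 0.00098), *Foxj1*, a factor of ciliated cells, was higher, by 1.94 (edgeR adjusted p = 0.00025), and *T* (brachyury) was not called, at 5.21 to 8.64 CPM in Control and 5.03 to 5.84 CPM in KD-1. *Spon2*, its relative, was at 1.12 to 1.66 CPM in Control and 0.138 to 0.322 CPM in KD-1 (log2 fold change -2.59 ± 0.41, SE, edgeR adjusted p = 0.0006).

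*Postn* and *Lum* were low even in Control and were not seen in KD-1. *Postn* (chromosome 3, from 54268501 to 54298471, plus strand), which encodes periostin, a fasciclin-domain protein of connective tissue, had 27, 7 and 30 counts in Control, or 1.30, 0.207 and 0.541 CPM. *Lum* (chromosome 10, from 97400990 to 97408577, plus strand), which encodes the small leucine-rich proteoglycan lumican, had 8, 14 and 1 counts in Control, or 0.386, 0.414 and 0.0180 CPM. Both had 0 counts in all 3 KD-1 libraries, so that against a floor of 3 counts over the group *Postn* was at least 32.1-fold lower and *Lum* at least 11.5-fold lower there. With the KD-1 library of highest depth left out the bounds were 15.9-fold and 5.7-fold, and for *Lum* 6.53-fold without the Control library of middle depth and 22.3-fold without that of highest depth.

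The spread within Control was wide for both, and the highest library was not the same one. *Postn* shares 80 exon bases with an antisense gene, *Gm31095*. *Tgfbi*, the fasciclin-domain relative of *Postn*, was at 2.40 to 3.10 CPM in Control and 1.65 to 1.91 CPM in KD-1 (log2 fold change -0.65 ± 0.18, SE, edgeR adjusted p = 0.013), a call that was lost without the Control library of highest depth or the KD-1 library of lowest or middle depth. Beside *Lum* on chromosome 10 lie 3 more proteoglycan genes, of which *Dcn* (decorin) had 4, 23 and 19 counts in Control and 2, 4 and 8 in KD-1, *Epyc* had 1 count in all and *Kera* had 0.

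**Figure D2:**
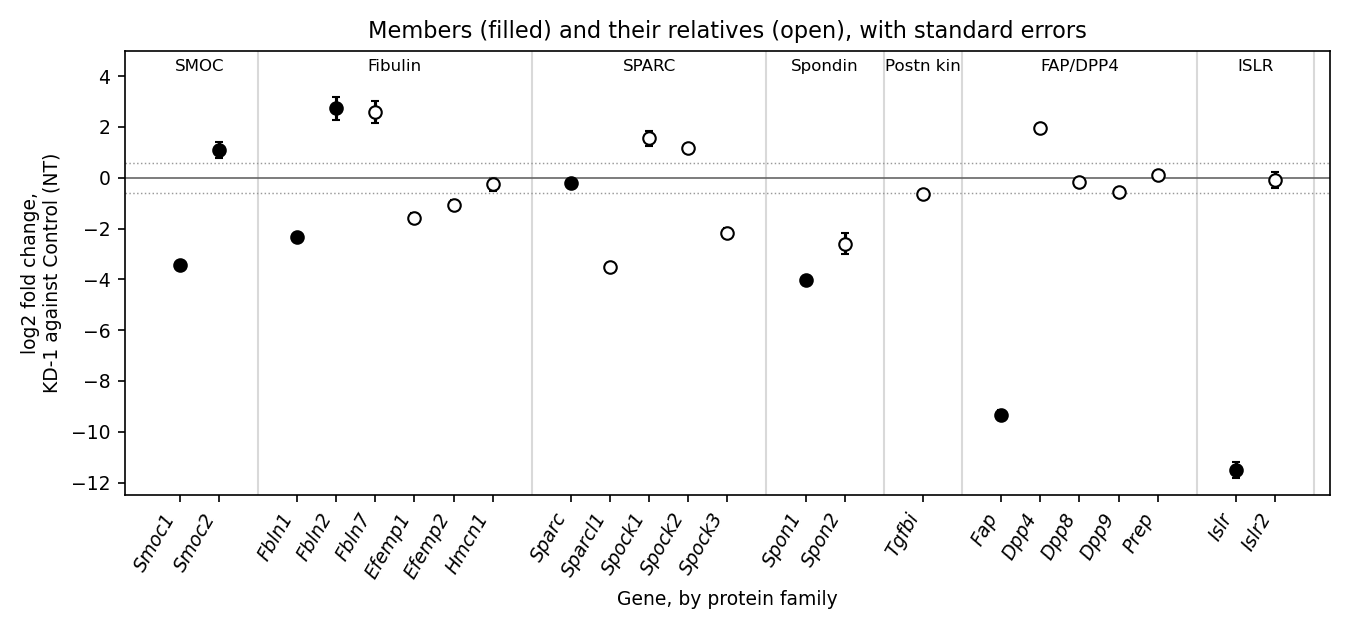
Log2 fold change of KD-1 against Control (NT) with its standard error (vertical axis) for tested members (filled points) and their relatives (open points), grouped by protein family, with dotted lines at a 1.5-fold change. *Smoc1* (-3.45) and *Smoc2* (1.1), *Fbln1* (-2.34) and *Fbln2* (2.73), and *Fap* (-9.33) and *Dpp4* (1.97) lie on opposite sides of 0; *Postn* and *Lum* were not tested and are not drawn, and the position of *Islr* (-11.50) rests on 2 counts in KD-1.

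Within 2 of the families the pairs of members lay in opposite directions, which can be read as a ratio within each library, on the scale of CPM per kilobase of the longest annotated transcript. *Smoc1* over *Smoc2* was 742, 442 and 512 in the Control libraries and 22.7, 20.1 and 24.1 in the KD-1 libraries. *Fbln1* over *Fbln2* was 2275, 689 and 892 in Control and 27.2, 22.8 and 28.5 in KD-1. In both families the more abundant gene was the same in all 6 libraries, and its lead over the other was smaller in KD-1. The *Fbln2* value behind the ratio of 2275 is a single count.

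On that same scale per length, the order of the members' levels in Control was *Smoc1* (49.5 CPM per kilobase), *Fbln1* (25.3), *Sparc* (16.5), *Islr* (14.9), *Fap* (9.74) and *Spon1* (1.77), followed by *Postn*, *Smoc2*, *Lum* and *Fbln2*, at 0.131 to 0.0265. The libraries of *Sparc* and *Islr* overlapped, as did each neighbouring pair from *Postn* to *Fbln2*, and these were not separated beyond their spread. In KD-1 the order began with *Sparc* (14.4 CPM per kilobase), *Fbln1* (4.99) and *Smoc1* (4.52), then *Smoc2* (0.204) and *Fbln2* (0.193), which overlapped, then *Spon1* (0.106), with *Fap*, *Islr*, *Postn* and *Lum* at the bottom. The order was the same with the median transcript length, and with the lowest or the highest Control library by depth or the lowest KD-1 library left out, 8 of the 10 members kept their place.

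The summed level of the 10 members was 373 to 408 CPM in the Control libraries and 71.9 to 75.2 CPM in the KD-1 libraries. *Smoc1* made up 44.6% ± 1.2 of this sum in Control (SD, n = 3) and 21.7% ± 0.66 in KD-1. *Sparc*, which was nearly level between the groups, made up 10.7% ± 0.061 in Control and 49.8% ± 0.84 in KD-1. *Fbln1* held a like share in both, 23.7% ± 2.0 and 25% ± 0.82, since its decrease was close to that of the whole sum. *Islr* and *Fap* went from 10.6% and 7.17% of the sum to 0.0211% and 0.0529%.

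The wider set of matrix genes was described with 5 companion lists of 126 genes, written out with earlier results of these data known. Of these, 98 were tested and 63 called, 21 higher and 42 lower in KD-1, a share of 64.3% against the 37.7% of all genes tested. Their median log2 fold change was -0.30, against -2.90 for the members. Nothing is read from that gap, since the members were chosen on this contrast. Genes at 0 in a group enter these medians with fitted values, but no median changes if they are placed at their bounds, since they lie at the ends of their lists.

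Of 38 other matricellular and secreted glycoproteins, 27 were tested, with 10 higher and 10 lower. *Thbs2*, a thrombospondin whose gene lies 260686 bases from *Smoc2*, was at 0.503 to 1.08 CPM in Control and 19.4 to 22.3 CPM in KD-1 (log2 fold change 4.56, edgeR adjusted p = 4.1e-07). *Spp1* (osteopontin) rose from a mean of 39.9 ± 5.8 to 191 ± 9.7 CPM (SD, n = 3, edgeR adjusted p = 4.5e-07), and *Egfl6*, a secreted protein with EGF repeats, by 3.05 on the log2 scale (edgeR adjusted p = 0.0005), or 4.17 without the Control library of highest depth. *Tnc* (tenascin C), like most members, was lower, at 1.36 to 3.84 CPM in Control and 0.0690 to 0.138 CPM in KD-1 (log2 fold change -4.91, edgeR adjusted p = 5.5e-05).

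Of 15 small leucine-rich proteoglycans and their relatives, the class of *Lum*, only 3 had enough counts to be tested, and 2 were lower in KD-1. *Fmod* (fibromodulin) was at 11.6, 14.1 and 13.4 CPM in Control and at 0 counts in the 3 KD-1 libraries, at least 733-fold lower (362-fold without the KD-1 library of highest depth) and, like *Lum*, not seen there. *Podn* (podocan) fell from a mean of 2.89 to 0.351 CPM (log2 fold change -3.08, edgeR adjusted p = 2.8e-05), and *Tsku* was not called.

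Of 27 partners in fibres, microfibrils and basement membranes, 24 were tested, with 5 higher and 12 lower. *Fbn2* (fibrillin 2) was at 188 to 248 CPM in Control and 10.4 to 12.4 CPM in KD-1 (log2 fold change -4.29, edgeR adjusted p = 6.4e-08). *Emilin1* and *Mfap4*, proteins of elastic microfibrils, had log2 fold changes of -4.17 (edgeR adjusted p = 5.5e-07) and -3.07 (edgeR adjusted p = 8.4e-08). *Emilin2*, *Nid1* (nidogen, a basement membrane linker) and *Acan* (aggrecan) were higher, with log2 fold changes of 1.86 (edgeR adjusted p = 0.0017), 1.22 (edgeR adjusted p = 2.3e-05) and 4.55 (edgeR adjusted p = 5.6e-05). The paralogs *Emilin1* and *Emilin2* thus took opposite directions, while *Emilin3* was not called (log2 fold change 0.76). *Fbn1*, the paralog of *Fbn2*, was lower as *Fbn2* was, at a log2 fold change of -1.04.

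Of 36 matrix proteases, inhibitors and crosslinking enzymes, 34 were tested, with 5 higher and 13 lower. *Serpinh1*, the collagen chaperone, fell from 334 to 410 CPM in Control to 68.6 to 70.5 CPM in KD-1 (log2 fold change -2.44, edgeR adjusted p = 8.8e-08). *Pcolce* and *Tll1*, which take part in procollagen processing, had log2 fold changes of -3.03 (edgeR adjusted p = 2.5e-06) and -3.18 (edgeR adjusted p = 3.8e-05). The gelatinase *Mmp2* and the inhibitor *Timp1* were higher, by 0.98 (edgeR adjusted p = 0.0032) and 0.63 (edgeR adjusted p = 0.0057) on the log2 scale. *Timp1* fell below the fold threshold without the Control library of middle depth (0.51) or the KD-1 library of lowest depth (0.57).

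Of 10 TGF-beta ligands and receptors, a pathway known to induce *Postn* and *Tgfbi*, all were tested, with 1 higher and 5 lower. The ligands *Tgfb2* and *Tgfb3* fell by 1.03 (edgeR adjusted p = 6.9e-06) and 3.28 (edgeR adjusted p = 1.8e-06) on the log2 scale, and *Lrrc32*, which holds latent TGF-beta at the cell surface, by 5.84 (edgeR adjusted p = 6.3e-07). The coreceptor *Eng* was higher, by 2.07 (edgeR adjusted p = 0.00029). *Tgfb1* was not called, at a log2 fold change of 0.11 that ranged from -0.17 to 0.81 with 1 library left out.

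**Figure D3:**
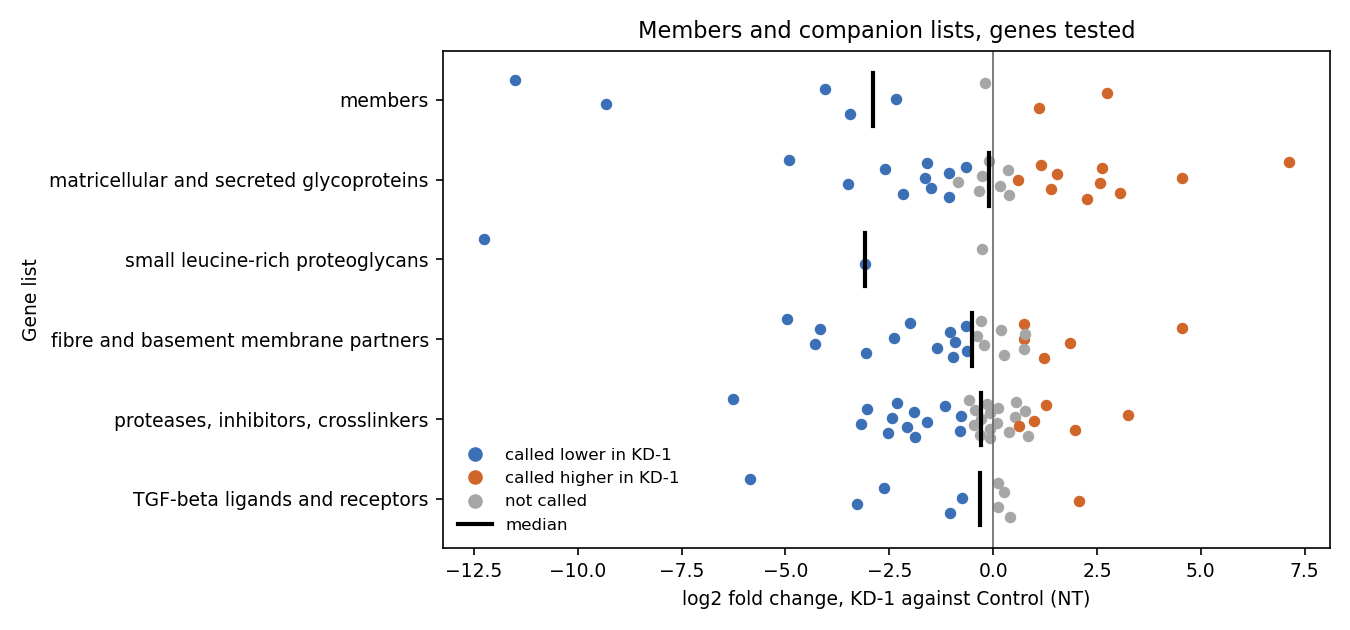
Log2 fold change of KD-1 against Control (NT) (horizontal axis) of each tested member and of each tested gene of the 5 companion lists (rows), coloured by call, with vertical bars at the medians and vertical jitter without meaning. The members' median is -2.90 and the lists' medians lie between -3.08, for 3 proteoglycans, and -0.10, for the matricellular glycoproteins; *Fmod* (-12.27) and *Thbs4* (7.14), at 0 counts in a group, are drawn at fitted values that are no bound.

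The members were set beside markers of the cell types that could make them. Of 14 markers of paraxial mesoderm, somite and sclerotome, 13 were tested and 13 were lower in KD-1. Their summed level was 622 to 686 CPM in Control and 49.0 to 49.9 CPM in KD-1. Most of the KD-1 sum was *Pax3*, which fell less, with means of 89.6 CPM in Control and 42.2 CPM in KD-1 (log2 fold change -1.09). *Meox1*, a transcription factor of somites, was at 354 to 388 CPM in Control and 0.391 to 0.453 CPM in KD-1, and *Pdgfra*, a receptor of mesenchymal progenitors, at 51.4 to 69.2 CPM and 0.781 to 1.00 CPM. The direction of the 5 members called lower was thus that of all tested markers of this tissue, and the opposite of *Smoc2* and *Fbln2*. Nothing is read from this shared direction, since the members were chosen on this contrast. The paper also lists the markers *Foxc1*, *Foxc2*, *Meox1*, *Tbx18* and *Pax1* as lower in these same data, so their direction was known beforehand. The part of a change in cell makeup in the members' values was not tested.

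Other marker lists moved by other amounts or in the other direction. Of 12 fibroblast markers, 9 were tested and 5 were lower. Their summed level was 252 to 282 CPM in Control and 147 to 159 CPM in KD-1, most of it from *Lgals1* and *Vim*. *Lgals1* fell from a mean of 158 CPM in Control to 30.7 CPM in KD-1. *Vim* was higher in KD-1, with means of 80.8 and 106 CPM, as was *Thy1*, with means of 0.132 and 0.451 CPM, and neither was called. The fibroblast gene *Ccl2* was at 0 in all 6 libraries and *S100a4* at no more than 0.0238 CPM, and *Col1a1*, the main collagen of fibroblasts, at 0.434 to 0.681 CPM in Control and 0.161 to 0.238 CPM in KD-1. *Col3a1*, another fibrillar collagen gene, was higher than that in Control, at 5.06 to 5.68 CPM, and at 0.0919 to 0.150 CPM in KD-1 (log2 fold change -5.41, edgeR adjusted p = 3.1e-07). Among the members, *Postn*, *Smoc2*, *Lum* and *Fbln2* had mean levels under 1 CPM in Control.

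Parietal endoderm, a known source of *Sparc*, had 9 of 12 markers tested, with 3 higher and 6 lower. Their summed level was 506 to 561 CPM in Control and 241 to 243 CPM in KD-1. Most of it came from *Lamb1*, *Lamc1*, *Col4a1*, *Lama1* and *Col4a2*, with Control means of 232, 101, 76.3, 68.9 and 45.3 CPM. Of these only *Lamc1* was higher in KD-1, with a mean of 155 CPM. Of the defining transcription factors of parietal endoderm, *Sox17* and *Gata6* were at no more than 0.397 CPM in any library. Both had fewer counts in KD-1, 0, 0 and 1 against 4, 9 and 9 for *Sox17*, and 0, 3 and 5 against 4, 5 and 22 for *Gata6*. *Gata4* was lower in KD-1, at 1.59 to 1.93 CPM in Control and 0.262 to 0.368 CPM in KD-1 (log2 fold change -2.48, edgeR adjusted p = 8.4e-05). *Sox7* was higher, at 0.0482 to 0.266 CPM in Control and 0.506 to 0.739 CPM in KD-1 (log2 fold change 2.23, edgeR adjusted p = 0.011), a call that was lost without the Control library of highest depth (1.71) or the KD-1 library of lowest depth (2.06), while without the Control library of middle depth the value was 3.41. Of 8 endothelial markers 5 were tested, with 2 higher and 1 lower. *Cdh5* and *Emcn*, under 0.4 CPM and not tested, had fewer counts in KD-1. *Cdh5* had 7, 8 and 21 counts in Control and 1, 1 and 2 in KD-1, and *Emcn* 3, 12 and 8 against 0, 0 and 0. The summed level of the endothelial markers was 26.2 to 27.4 CPM in Control and 39.5 to 42.2 CPM in KD-1. Most of that sum was *Pecam1*, which was higher in KD-1, at 14.4 to 14.7 CPM in Control and 28.7 to 30.7 CPM in KD-1 (edgeR adjusted p = 4e-06), as was *Tek*, with means of 0.719 and 3.53 CPM (edgeR adjusted p = 2e-05), whereas *Kdr* was lower, with means of 1.92 and 1.06 CPM (edgeR adjusted p = 0.018), a call that was lost without the KD-1 library of middle or highest depth. Of 7 floor plate and notochord markers 3 were tested, with 1 higher and 1 lower, and the sums overlapped, at 8.39 to 12.3 CPM in Control and 7.96 to 9.04 CPM in KD-1. Of 8 cardiac and epicardial markers 3 were tested, with 1 higher and 2 lower, and a sum of 5.88 to 7.58 CPM in Control and 1.77 to 1.81 CPM in KD-1. The part of any of these cell types in the members' values was not tested.

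Most markers of naive pluripotency and of neural cells were higher in KD-1, where most members were lower. Of 10 naive pluripotency markers, all tested, 8 were higher in KD-1, and their summed level was 1228 to 1260 CPM in Control and 2769 to 2854 CPM in KD-1. The paper lists *Nanog*, *Esrrb*, *Klf2*, *Klf4*, *Tfcp2l1*, *Zfp42* and *Tdgf1* as higher in these same data, so their direction was known beforehand. Of 8 neural markers, all tested, 6 were higher, and the sum was 156 to 162 CPM in Control and 323 to 337 CPM in KD-1. The neural marker *Nes* went the other way, with means of 114.6 CPM in Control and 84.6 CPM in KD-1. Its log2 fold change of -0.44 (edgeR adjusted p = 0.00028) was short of the fold threshold.

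**Figure D4:**
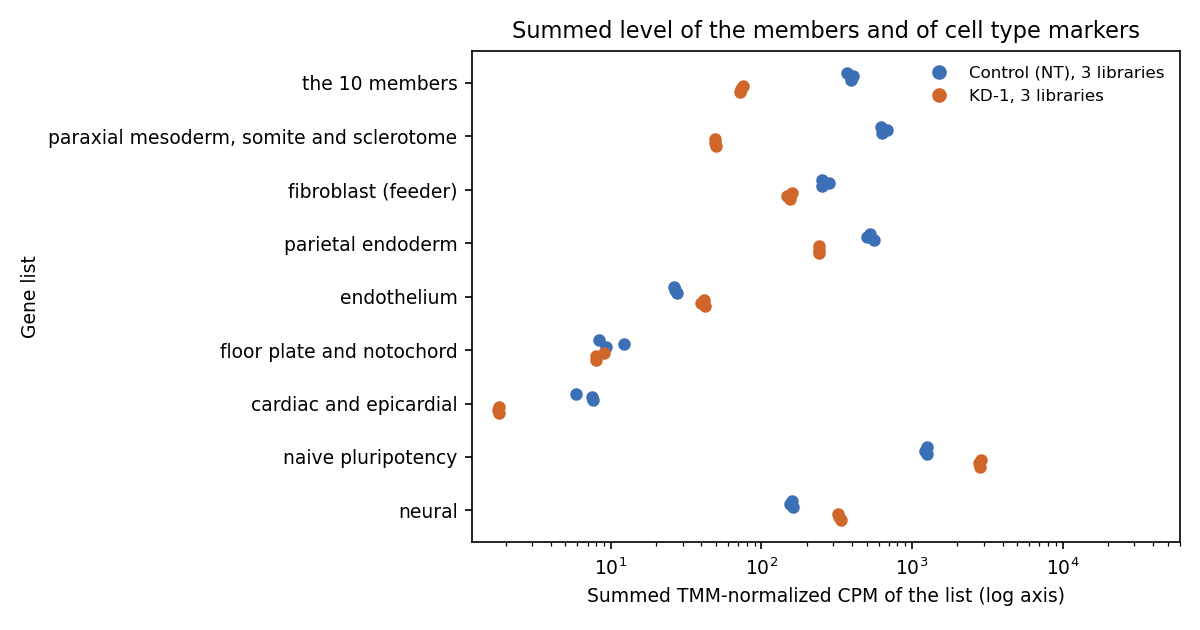
Summed TMM-normalized CPM (horizontal log axis) of the 10 members and of 8 marker lists (rows) in each of the 3 Control (NT) and 3 KD-1 libraries. The members (373 to 408 against 71.9 to 75.2 CPM) lie on the same side as the markers of paraxial mesoderm (622 to 686 against 49.0 to 49.9 CPM), and naive pluripotency and neural markers on the other. Fibroblast, parietal endoderm, and cardiac and epicardial markers are also lower in KD-1. Endothelial markers are higher there, and the groups overlap for floor plate and notochord markers.

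The genes next to the members on their chromosomes were not, as a set, lower. Of 40 nearest protein-coding genes, 2 on each side of each member, 31 were tested, with 9 higher and 4 lower, a share of 41.9% called against 37.7% of all genes. *Stra6* beside *Islr* was lower, as was *Dact2*, an inhibitor of WNT signalling beside *Smoc2*, at 40.2 to 55.0 CPM in Control and 5.44 to 6.15 CPM in KD-1 (log2 fold change -2.98, edgeR adjusted p = 4e-07). *Ifih1*, an RNA sensor gene beside *Fap*, was lower as well, at a log2 fold change of -2.57 (edgeR adjusted p = 6.7e-05). Beside *Fbln2*, *Wnt7a* was higher, with 2, 4 and 2 counts in Control and 35, 37 and 64 in KD-1 (log2 fold change 3.37, edgeR adjusted p = 0.00036). *Smoc2*, the member that was higher in KD-1 on chromosome 17, thus lay between *Dact2*, which was lower, and *Thbs2*, which was higher. Besides the neighbours named so far, *Ccdc33* was called lower, and *Gca*, *Pml*, *Smc1b*, *Slc36a1*, *Fat2* and *Far1* were called higher.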

How the data were processed

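Bulk RNA-seq libraries of 3 Control (NT) and 3 KD-1 gastruloid samples were analysed. The authors quantified paired-end reads with Salmon (1.1, per the submitters' processing notes) and deposited estimated counts (expected counts) per Ensembl gene as whole numbers, without normalization. The genome build and the use of strand are not given in the sources used here. Salmon divides reads among overlapping and near-identical genes, whose counts are therefore uncertain. Gene names and positions come from GENCODE vM39 (GRCm39), which matched 35222 of 35565 identifiers; *Tdgf1* is named *Cripto* there.

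All 6 libraries were fitted with edgeR 4.0.16 in R 4.3.3 (filterByExpr, TMM, robust quasi-likelihood fit, condition as the only term, Benjamini-Hochberg adjustment over 15110 genes), and the script was tested on simulated data. Calls needed an adjusted p under 0.05 and a fold change of more than 1.5 in either direction. An exact permutation of 3 against 3 cannot go below p = 0.1, so single values were not tested that way. Levels per length use the longest annotated transcript, or the median length as an alternative. Counting intervals of ratios are 95% intervals and cover counting error only.

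Alternatives were DESeq2 1.42.0, limma-voom (limma 3.58.1), other normalizations, filters and fold thresholds, and each library left out in turn. The comparison of long and short genes, and the low-count ratios with a library left out, were added after seeing the data. The members and lists were chosen with earlier results of these data known. All members and a chosen set of their relatives are named. Among the relatives not described above, *Hmcn2* (log2 fold change -0.84) and *Dpp7* (-0.30) were not called, and *Fstl1* (-1.49) was called lower. From each companion list up to 3 called falls and 3 rises are named, with a mean of at least 1 CPM in a group. Of the 2 nearest protein-coding genes on each side the called ones are named, with few of the others. Of the markers only some are named, so these are a selection. *Spock3*, *Tsku*, *Tgfb1*, *Dpp8*, *Dpp9*, *Prep* and *Thbs4* were named after their values were seen. A marker of the floor plate list is not reported here.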

Additional observations from a re-analysis of the deposited data

How the results depend on the processing

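The count of genes called was 5704, 3274 with an absolute log2 fold change over 1 and 9597 with no fold threshold, and it was 5175 to 6113 with 1 library left out. Of the members 7 were called, 3 with at least 10 counts in every library, a filter that only *Smoc1*, *Fbln1*, *Sparc* and *Spon1* pass, and 7 to 9 with 1 library left out. *Smoc2* lost its call without the KD-1 library of middle or highest depth. DESeq2 and the fit without a filter could test *Postn* and *Lum* and called 9 members each. Of the companion genes 63 were called, 47 to 72 over all alternatives. *Tgfbi* lost its call without the Control library of highest depth or the KD-1 library of lowest or middle depth (adjusted p = 0.05 to 0.058 in edgeR's quasi-likelihood test), and *Timp1* without the Control library of middle depth or the KD-1 library of lowest depth. *Islr2* (-0.098) changed sign without the Control library of highest depth (0.065) or the KD-1 library of middle depth (0.041), and ranged from -0.313 to 0.065 with 1 library left out. *Tgfb1*, not called, ranged from -0.174 to 0.81 in the same way. *Col1a1* and *Kdr* lost their calls without the KD-1 library of middle or highest depth, *Sox7* lost its own as stated above, and *Dpp9* gained one under 4 alternatives. Among the other members and genes whose log2 fold change was recomputed none changed sign, and the cause of these changes was not tested. No paired analysis was possible because the columns carry no replicate number that matches the labels. Depth limits *Postn*, *Lum*, *Fbln2* and *Smoc2*, and the KD-1 values of *Fap* and *Islr*.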
